A study of Mus musculus with 4 samples.

Results

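The cyclin, CDK, Cdc and Anapc genes of the mouse were examined for binding of RUVBL2 in the hypothalamus. The members were taken by symbol from RefSeq's genes on the GRCm38.p6 assembly: protein-coding genes whose symbols begin with Cdk, Cdc or Anapc and a digit, or with Ccn, a letter from a to l and then a digit or nothing, with Cdk9 left out. The rule gave 88 of 21779 protein-coding genes, on 20 chromosomes. It uses symbols only, so it also takes in genes that share a prefix with the cell cycle genes and do other work, such as Cdc42 and its effectors.

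RUVBL2 was mapped by chromatin immunoprecipitation and sequencing (ChIP-seq) in the whole hypothalamus of wild-type (WT) C57BL/J male mice aged 8 weeks. The series holds 2 RUVBL2 ChIP libraries, made with an anti-RUVBL2 antibody, and 2 input libraries made without antibody from the same kind of tissue. All 4 came from WT animals with no treatment named. Whether libraries 1 and 2 came from separate animals or pools is not in the labels, so their spread may be technical only.

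Cyclins bind and activate cyclin-dependent kinases (CDKs), and the waves of cyclins D, E, A and B carry a dividing cell through its cycle. The anaphase-promoting complex (APC/C) is a ubiquitin ligase that marks cyclin B and other proteins for destruction at the end of mitosis. Most cells of the adult hypothalamus do not divide. Several members act outside division there: CDK5 is a kinase of neurons, the APC/C works in neurons with its coactivator Fzr1, and a further set of CDKs and cyclins acts on RNA polymerase II or on splicing. RUVBL2 is an AAA+ ATPase of the INO80, SRCAP and TIP60 chromatin complexes and of the R2TP chaperone.

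The authors called peaks per library, which gave 3943 peaks in replicate 1 and 6403 in replicate 2. A shared region is the joined interval of peaks of both lists that overlap by at least 1 bp, and there were 3111. A region was counted for a gene when its midpoint lay within 3 kb of either gene end. The fold enrichment given below is the authors' value at the summit over the background that their peak caller estimated, and its interval is the exact Poisson 95% interval of the summit read pileup, which covers counting error only. The median pileup over all peaks was 16 reads in replicate 1 and 22 reads in replicate 2. Read totals per library were not used here. Among marker genes of the tissue, 0 of 10 neuronal markers had a shared region near an end, beside 16.0% of all protein-coding genes. Rbfox3 had one inside the gene, and 3 (Tubb3, Nefm and Stmn2) had a peak in replicate 2 only (30%, beside 14.8%). Pomc was the single one of 14 hypothalamic peptide and identity genes with a shared region near an end (7.14%, beside 16.0%). Of 9 astrocyte, 10 oligodendrocyte-lineage, 9 microglial and 9 endothelial and mural markers none had one, which allows shares of up to 33.3% for lists of 9 and 30% for lists of 10. The astrocyte genes Slc1a2 and Aldoc (22.2% of that list) and the oligodendrocyte gene Cnp (10%) had a peak in replicate 2 only, beside 14.8%. The microglial, endothelial and mural markers had no peak in either library, as had 64.2% of all protein-coding genes. The share with none was 60% of the neuronal, 77.8% of the astrocyte, 90% of the oligodendrocyte-lineage and 92.9% of the hypothalamic markers.

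Of the 88 genes, 20 had a shared region near an end (22.7%, exact Clopper-Pearson 95% interval 14.5 to 32.9), beside 16.0% of all protein-coding genes. In the body widened by 3 kb on each side the count was 21 (23.9%), beside 17.2%; the added gene was Ccnl1. In replicate 1 alone 21 of the 88 genes had a peak near an end (23.9%, 15.4 to 34.1), beside 19.4% of all protein-coding genes. In replicate 2 alone 52 did (59.1%, 48.1 to 69.5), beside 30.4%. In all, 34 of the 88 genes had a peak in the widened body in replicate 2 only, beside 14.8% of all genes, and 1 gene, Cdc34, had one in replicate 1 only, beside 3.14%. The remaining 32 genes (36.4%) had no peak in either library, beside 64.2%. No test of these shares was made, since the only replicates are the 2 libraries.

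Many replicate 2 peaks of the members had no partner in replicate 1: 20 of 52 members with a replicate 2 peak near an end also had a shared region there (38.5%), against 52.6% of all such genes. This difference was not tested. The 34 genes with a replicate 2 peak only had folds of 3.29 to 6.86 there, with a median of 4.80, and their median pileup was 22 reads. The 20 genes with a shared region near an end had a median of 5.52 in that library, and their median pileup was 26 reads. Chromatin came from all cells of the tissue, so a peak that few cells carry and a weak peak in all cells cannot be told apart.

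**Figure D1:**
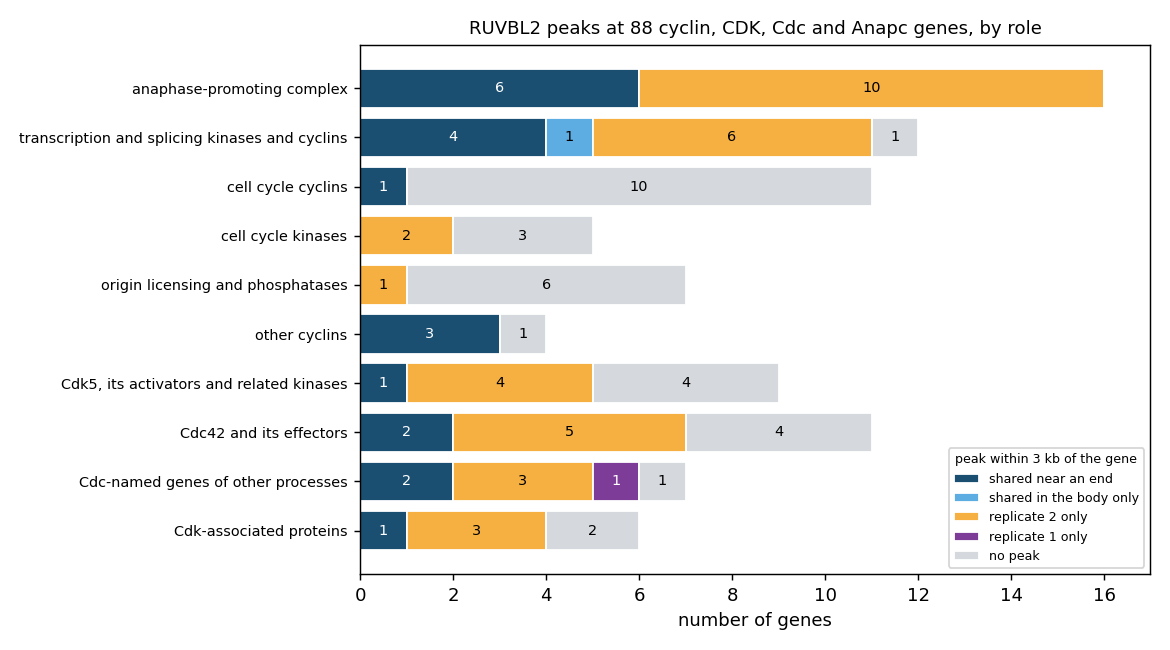
Number of genes in each role group (x axis) by where RUVBL2 peaks lay; colours show a shared region near a gene end, a shared region inside the gene only, a peak of 1 library only, or no peak in either library. All 16 genes of the anaphase-promoting complex group had a peak in at least replicate 2, while 10 of 11 cell cycle cyclins had none in either library. Of all protein-coding genes, 64.2% had none.

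The genes of the anaphase-promoting complex formed the group with a peak at every member, whereas 64.2% of all protein-coding genes had none. Of its 16 genes, 6 had a shared region near an end (37.5%, exact Clopper-Pearson interval 15.2 to 64.6), beside 16.0% of all protein-coding genes, which lies inside that interval. The other 10 had a peak in replicate 2 only (62.5%, beside 14.8%). The 6 shared genes include subunits of the platform, the catalytic core and the arm that binds the coactivator. Those of the catalytic core, Anapc2 and Anapc11, share their regions with a neighbouring gene, and some of the replicate 2 peaks also lay near another gene's end. The group's count was 14 of 16 in replicate 2 alone (beside 30.4% of all genes), 6 of 16 in replicate 1 alone (beside 19.4%) and 3 of 16 with peaks of a −log10 q of at least 5 (beside 7.93%).

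The platform subunit Anapc5 was enriched 8.01-fold (counting interval 5.30 to 11.7) in replicate 1, and 4.88-fold (3.25 to 7.07) in replicate 2. Its region on chromosome 5 (122820475 to 122821418) lay 1393 bp from the end in the gene table, but the summits lay 210 and 229 bp after the start in the RefSeq promoter table. Anapc1, the largest platform subunit, had folds of 5.88 (3.70 to 8.93) and 4.73 (3.37 to 6.47) over pileups of 20 and 37 reads. In both libraries its summit lay just inside the gene, 117 and 185 bp after the start.

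Anapc2, the cullin-like subunit, was enriched 4.93-fold (2.90 to 7.93) in replicate 1 and, in replicate 2, 5.39-fold (3.43 to 8.11). Its partner in catalysis, the RING subunit Anapc11, had folds of 5.79 (3.55 to 8.97) and 3.52 (2.16 to 5.45). Both genes share their regions with a close neighbour, so the peak cannot be given to either gene of the pair: the end of Ssna1 lay 56 bp from the midpoint of the Anapc2 region, and that of Alyref, an mRNA export factor, 76 bp from that of Anapc11. Anapc10, which helps to bind substrates, had folds of 6.16 (3.83 to 9.45) and 6.30 (4.39 to 8.77), and the end of Abce1, a ribosome recycling factor, lay 26 bp from the region's midpoint. Cdc27, an arm subunit that docks the coactivator, had the weakest shared region of the group by rank in replicate 1, with folds of 4.01 (2.22 to 6.77) and 3.89 (2.48 to 5.86) over pileups of 12 and 21 reads.

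Of the APC/C genes with a peak in replicate 2 only, the small subunit genes Anapc13 and Anapc16 had the highest folds, 6.24 (4.40 to 8.62) and 5.65 (3.92 to 7.91). The midpoint of the Anapc16 peak lay 465 bp from its gene end and 78 bp from that of Ascc1. For Cdc26 it lay 60 bp from the gene end and 77 bp from that of Prpf4. Neither peak can be given to 1 gene of its pair. The Anapc13 peak lay 36 bp from its gene end and 304 bp from that of Cep63. The Anapc15 peak lay 5544 bp from a gene end, with its summit 124 bp after the promoter start. The folds of the arm subunits Cdc16, Cdc23 and Anapc7 were 5.03, 4.64 and 3.82 in that library. Anapc4, a platform subunit, had 5.33, the small subunit Cdc26 had 4.02 and Anapc15 had 4.17. Where a promoter start was given, for all of these but Cdc23, the summit lay 28 to 174 bp after it. Cdc20, the coactivator that is made in dividing cells, had the weakest peak of the group, with a fold of 3.29 (1.78 to 5.67), a pileup of 11 reads and rank 6328 of the 6403 peaks, 749 bp before its start. The peak of Cdc20b, a Cdc20 relative, fell inside that gene, 11418 bp from its nearer end and 37 bp from the end of Gpx8. The nearest replicate 1 peaks to these 10 genes lay from 3532 bp away, at Cdc23, to 1374448 bp away, at Anapc13.

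The genes of transcription and splicing CDKs and their cyclins had a peak in at least 1 library at 11 of 12 members. Of all protein-coding genes, 64.2% had none in either library. Of 12 genes, 4 had a shared region near an end (33.3%, exact Clopper-Pearson interval 9.92 to 65.1), and the 16.0% of all protein-coding genes lies inside that interval. Ccnl1 had one in the gene body, 6 had a peak in replicate 2 only (50%, beside 14.8% of all genes), and Cdk10 had none in either library. With −log10 q of at least 5 in both lists 2 of the 12 had a region near an end (beside 7.93% of all genes), and in replicate 2 alone 10 of the 12 had a peak there (beside 30.4%).

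Cdk8, the kinase of the Mediator complex, was enriched 4.93-fold (2.90 to 7.93) in replicate 1 and, in replicate 2, 7.70-fold (5.21 to 11.01), with summits 154 and 30 bp before the start. Its cyclin Ccnc and its close relative Cdk19 had a peak in replicate 2 only, with folds of 3.98 (2.41 to 6.24) and 3.98 (2.61 to 5.85). Cdk13, which phosphorylates the tail of RNA polymerase II, had folds of 7.40 (4.80 to 10.9) and 5.35 (3.62 to 7.66). Its cyclin Ccnk had 2 shared regions near its start, the better ranked with folds of 5.60 (3.48 to 8.58) and 3.49 (2.29 to 5.13) and the other with 4.86 and 4.01. The better ranked lay 564 bp from the Ccnk end and 527 bp from that of Setd3, a histidine methyltransferase gene, and the other 597 and 634 bp from them. Cdk12, the other partner of cyclin K, had a peak in replicate 2 only, with a fold of 4.97 (3.36 to 7.10).

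The cyclins L, which bind CDK11 and act in splicing, both had a shared region at an annotated promoter start inside the gene span. Ccnl2 was enriched 6.92-fold (4.45 to 10.3) in replicate 1 and, in replicate 2, 6.73-fold (4.61 to 9.52), with summits 155 and 86 bp after the start and 2470 bp between the region and the gene end. Ccnl1 had folds of 4.77 (2.85 to 7.57) and 6.69 (4.55 to 9.51). Its summits lay 77 bp before the start in replicate 1 and 272 bp after it in replicate 2, but the region lay 4005 bp from the gene end, outside the 3 kb window. Cdk11b itself had a peak in replicate 2 only, with a fold of 6.69 (4.55 to 9.51). The kinase Cdk7 and its cyclin Ccnh, which form the CDK-activating kinase and belong to the general factor TFIIH, also had peaks in replicate 2 only, with folds of 5.63 (3.58 to 8.48) and 4.66 (2.78 to 7.40).

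Of the 11 cyclin genes of the division cycle, 10 had no peak in either library within 3 kb of the gene or inside it (90.9%), as had 64.2% of all protein-coding genes. They were the mitotic cyclins Ccna2, Ccnb1 and Ccnb2, the S phase cyclins Ccne1 and Ccne2, the G1 cyclins Ccnd1 and Ccnd2, the germ cell cyclins Ccna1 and Ccnb3, and Ccnf. The nearest peak to Ccnb1 lay 46477 bp away in replicate 1 and 34027 bp away in replicate 2, and the nearest to Ccna2 lay 631772 and 498454 bp away. For Ccnd1 these distances were 14366 and 347480 bp, and for Ccnd2 they were 275875 and 185067 bp. For Ccne1 they were 78616 and 76068 bp, and for Ccne2 48934 and 33722 bp. Ccnd3, the third G1 cyclin, was counted with a shared region (folds 5.55, 3.36 to 8.70, and 5.97, 3.87 to 8.83), but its midpoint lay 2757 bp from the Ccnd3 end and 27 bp from the end of Taf8, a subunit gene of the general factor TFIID. Ccnd3 also had a peak inside the gene in replicate 2 only, 6204 bp from its nearer end, with a fold of 5.21 (3.20 to 8.08). When shared regions were assigned to the nearest end alone, or with a 1 kb window, 0 of the 11 cyclins had one, beside 12.7% and 13.9% of all genes.

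Of the 5 kinase genes of the division cycle, Cdk1, Cdk2, Cdk4, Cdk6 and Cdc7, 0 had a shared region, which for so short a list allows a share of up to 60%, beside 16.0% of all protein-coding genes. In replicate 2, 2 of the 5 had a peak near an end (40%, beside 30.4% of all genes), and 3 had no peak in either library (60%, beside 64.2%), so their shares lay near those of all genes. Cdk4, the partner of the D cyclins, had a peak in replicate 2 only, with a fold of 4.55 (2.90 to 6.85) and a summit 283 bp after its start. Cdk2 was counted through a replicate 2 peak with a fold of 3.74 (2.38 to 5.63) that lay 1691 bp from its gene end and 37 bp from the end of Rab5b, a trafficking GTPase gene. Cdk1, the mitotic kinase, had its nearest peak 121818 bp away in replicate 1 and 121718 bp away in replicate 2. For Cdk6 the nearest peaks lay 12746 and 12723 bp away.

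Of 7 genes of origin licensing and of the cell cycle phosphatases, 0 had a shared region, which allows up to 42.9%, beside 16.0% of all protein-coding genes. Cdc45, a subunit of the replicative helicase, had a peak in replicate 2 only (fold 3.85, 2.50 to 5.70). The licensing factor gene Cdc6 and the phosphatase genes Cdc25a, Cdc25b, Cdc25c, Cdc14a and Cdc14b had no peak in either library, so that 6 of the 7 had none (85.7%, beside 64.2% of all genes). The nearest peaks to Cdc25b lay 6209 and 6799 bp away.

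The highest folds of all members were found at a cyclin that is not tied to division. Ccni, an atypical cyclin known from differentiated tissues including brain, was enriched 11.1-fold (7.82 to 15.3) in replicate 1 and, in replicate 2, 14.7-fold (11.2 to 18.9), over pileups of 35 and 58 reads, and ranked 36 of 3943 and 34 of 6403 by −log10 p. The region on chromosome 5 (93206363 to 93206959) lay 166 bp from the Ccni end and 143 bp from that of its neighbour 2010109A12Rik. Ccng2, a cyclin linked to cell cycle arrest, had folds of 6.72 (4.36 to 9.94) and 5.001 (3.33 to 7.24). Ccnj had folds of 3.50 (2.09 to 5.55) and 7.90 (5.34 to 11.3), the lowest replicate 1 fold among the members with a shared region. Ccng1, a p53 target and the relative of Ccng2, had no peak, its nearest lying 55969 and 55811 bp away. Of these 4 genes, 3 had a shared region near an end (75%, exact Clopper-Pearson interval 19.4 to 99.4), beside 16.0% of all protein-coding genes.

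Among the kinases of neurons, Cdk5 had a shared region, with a 4.62-fold (2.67 to 7.55) summit in replicate 1 and, in replicate 2, one of 4.34-fold (2.73 to 6.59). The midpoint lay 260 bp from the Cdk5 end and 86 bp from the end of Slc4a2, an anion exchanger gene. Of the activators of CDK5, Cdk5r1 (p35) had a peak in replicate 2 only, with a fold of 4.23 (2.66 to 6.43), and Cdk5r2 (p39) had none. The role group also holds other kinase genes. Of these, Cdk16, Cdk17 and Cdk20 had replicate 2 peaks with folds of 5.76, 6.25 and 5.31, whereas Cdk14, Cdk15 and Cdk18 had no peak. Of these 9 genes, 1 had a shared region near an end (11.1%, beside 16.0% of all protein-coding genes). A further 4 had a peak in replicate 2 only (44.4%, beside 14.8%), and 4 had none (44.4%, beside 64.2%).

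**Figure D2:**
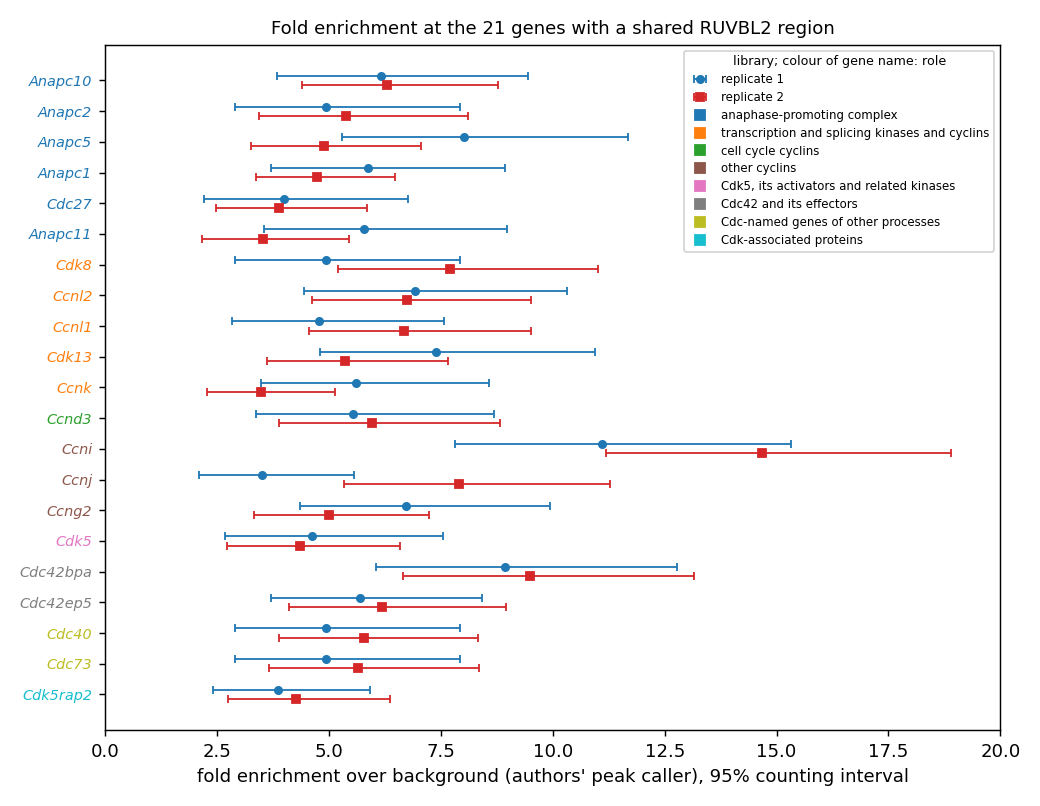
Fold enrichment at the summit (x axis) for the 21 genes with a shared region near an end or in the gene body, in replicate 1 (circles) and replicate 2 (squares), with exact Poisson 95% intervals of the pileup; gene names are coloured by role. Ccni lies highest in both libraries, at 11.1 and 14.7, and most other genes lie between 4 and 8 with wide intervals.

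Among genes that carry a Cdc or Cdk prefix but do other work, 2 of 11 genes of Cdc42 and its effectors had a shared region (18.2%), near the 16.0% of all protein-coding genes. Cdc42bpa, a kinase that acts downstream of CDC42 on the cytoskeleton, had folds next below those of Ccni, with 8.94 (6.04 to 12.8) in replicate 1 and, in replicate 2, 9.50 (6.66 to 13.2). Its summits lay at −879 and −1073 bp from the nearest annotated start. The region counted for Cdc42ep5 (folds 5.69, 3.70 to 8.42, and 6.18, 4.11 to 8.95) lay 1794 bp from that gene's end, far from its start, and 406 bp from the end of Leng9. Cdc42 itself had a peak in replicate 2 only, with a fold of 6.86 (4.53 to 10.003), the highest of the 34 such genes. Cdc42bpb, Cdc42ep3, Cdc42se1 and Cdc42se2 also had one in replicate 2 only, so that 45.5% of the 11 did, beside 14.8% of all genes. Cdc42bpg, Cdc42ep1, Cdc42ep2 and Cdc42ep4 had none (36.4%, beside 64.2%).

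Of 7 Cdc-named genes of other processes, 2 had a shared region (28.6%, exact Clopper-Pearson interval 3.67 to 71.0, beside 16.0%). Cdc73, a subunit of the PAF1 elongation complex, had folds of 4.93 (2.90 to 7.93) and 5.64 (3.66 to 8.35). The splicing factor gene Cdc40 had 4.93 (2.90 to 7.93) and 5.79 (3.89 to 8.33), in a region 640 bp from its end and 303 bp from that of Wasf1, an actin regulator gene. Cdc34, a ubiquitin-conjugating enzyme gene, was the single member with a peak in replicate 1 only (fold 4.32, 2.44 to 7.16). Cdc5l, Cdc37l1 and Cdc123 had one in replicate 2 only (42.9% of the 7, beside 14.8% of all genes). Cdc37, the HSP90 cochaperone gene, had none (14.3%, beside 64.2%). Of 6 genes of CDK-associated proteins, Cdk5rap2, which encodes a centrosome protein, had a shared region (folds 3.86, 2.40 to 5.92, and 4.26, 2.74 to 6.35). This share of 16.7% lay near the 16.0% of all protein-coding genes. Cdk2ap1, Cdk2ap2 and Cdk5rap1 had a peak in replicate 2 only (50%, beside 14.8% of all genes), and Cdk5rap3 and Ccnb1ip1 had none (33.3%, beside 64.2%). Without these prefix-only groups, 15 of 64 genes had a shared region near an end (23.4%, beside 16.0% of all protein-coding genes).

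The members' regions had folds near those of regions at gene ends in general. Over the 21 shared regions near an end of the 20 genes, the median fold was 5.60 (range 3.50 to 11.1) in replicate 1 and 5.39 (3.49 to 14.7) in replicate 2. Over all 2784 shared regions near a protein-coding gene end the medians were 5.12 and 5.37. The median pileups were 19 and 26 reads at the members and 17 and 25 reads at all such regions. The median width was 689 bp at the members and 711 bp at all such regions, and summits of the 2 libraries lay a median of 113 bp apart at the members and 91 bp apart at all.

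**Figure D3:**
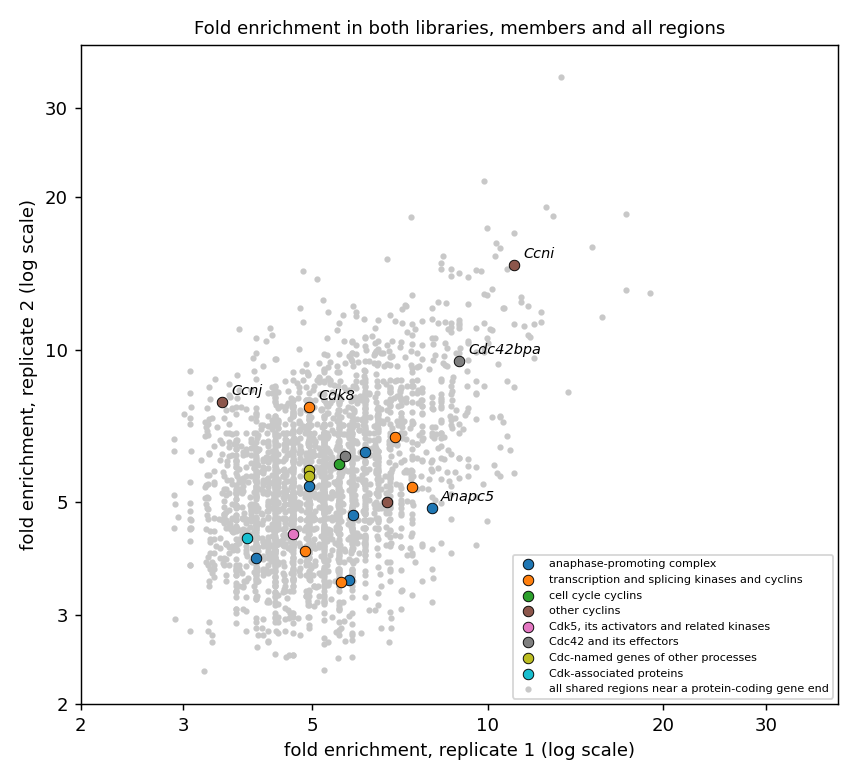
Fold enrichment in replicate 1 (x axis) against replicate 2 (y axis), both on a log scale, for the members' 21 shared regions near an end (coloured by role) and all 2784 shared regions near a protein-coding gene end (grey). The members lie within the grey cloud, with medians of 5.60 and 5.39 beside 5.12 and 5.37, and Ccni and Cdc42bpa lie toward its upper end.

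Of the 88 genes, 76 have an entry in the RefSeq promoter table of GRCm38.p6, which gives strand and start; Ccna2, Ccnd1, Ccnd2, Ccne2, Ccnh, Cdc23, Cdc25c, Cdc42bpg, Cdk5, Cdk5r1, Cdk17 and Cdk19 have none. Of the 20 genes with both an entry and a shared region, Ccnl1 included, 17 had the summits of both libraries within 1 kb of a start. Over the 76 genes this share was 22.4%, beside 15.4% of all protein-coding genes with an entry. For 16 of the 20 both summits lay within 500 bp of it. The other genes were Ccnd3 and Cdc42ep5, whose regions lie at a neighbour, Cdc42bpa, with a summit just beyond 1 kb, and Cdc40, within 1 kb but not 500 bp. Of the 29 genes with an entry and a peak in replicate 2 only, 26 had the summit within 1 kb of a start, and the median over the 29 was 89 bp after it.

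**Figure D4:**
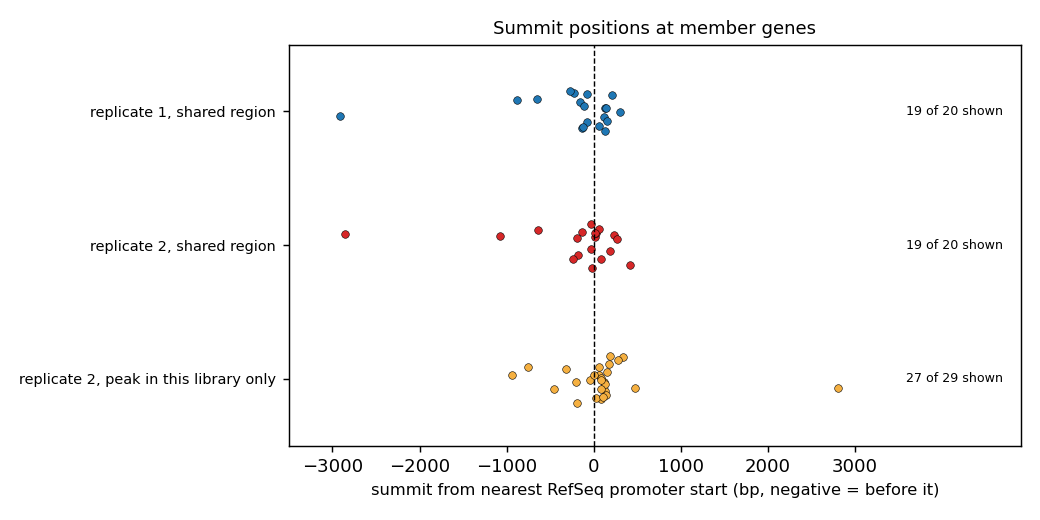
Position of peak summits along the x axis, in bp from the nearest RefSeq promoter start, for genes with a shared region (replicate 1 and replicate 2) and for genes with a peak in replicate 2 only; each point is a gene, and points beyond the axis are left out, with the number shown given at the right. Most summits in all 3 rows lie within 500 bp of the start.

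Of the 20 genes with a shared region near an end, 10 have the end of another protein-coding gene within 3 kb of the region's midpoint, and for 7 that other end was nearer: Anapc11, Ccnd3, Ccni, Cdc40, Cdc42ep5, Cdk5 and Ccnk. When each region went to its nearest end only, 14 genes had one (15.9%), beside 12.7% of all protein-coding genes. Ccnk kept its other region. At the 3 kb limit, the member regions just inside were those of Ccnd3 (2757 bp) and Ccnl2 (2470 bp), and the regions just outside were those near Cdc23 (3860 bp, with the end of Kif20a at 136 bp) and in Ccnl1 (4005 bp).

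The 250 bases before the start are shown for the 6 genes that had the summits of both libraries in the RefSeq promoter window, which runs to 50 bases after the start, so that the letters under the peak can be read. Capitals mark matches, on either strand, to any of 8 short motifs: CCAAT (the box of NF-Y), GGGCGG (GC box), CCGGAAG (ETS factors), GCATGCG (core of NRF1), TGACGT (core of the CRE), TTTGAA (the CHR element of mitotic genes), GCGGGAA (E2F) and AAGATGG (YY1). GGGCGG and GCGGGAA can overlap.
Ccni (GRCm38.p6 chr5:93206496-93206745, minus strand): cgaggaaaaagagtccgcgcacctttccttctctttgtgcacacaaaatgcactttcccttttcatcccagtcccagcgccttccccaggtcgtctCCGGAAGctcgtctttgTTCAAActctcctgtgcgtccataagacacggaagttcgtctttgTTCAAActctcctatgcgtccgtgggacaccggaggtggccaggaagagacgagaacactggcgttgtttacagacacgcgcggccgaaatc
Anapc10 (GRCm38.p6 chr8:79711513-79711762, plus strand): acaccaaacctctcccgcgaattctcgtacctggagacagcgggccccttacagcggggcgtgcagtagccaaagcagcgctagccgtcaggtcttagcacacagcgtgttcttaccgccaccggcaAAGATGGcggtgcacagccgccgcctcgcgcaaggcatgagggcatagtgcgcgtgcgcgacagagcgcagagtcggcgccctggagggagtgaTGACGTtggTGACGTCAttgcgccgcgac
Cdk13 (GRCm38.p6 chr13:17805098-17805347, minus strand): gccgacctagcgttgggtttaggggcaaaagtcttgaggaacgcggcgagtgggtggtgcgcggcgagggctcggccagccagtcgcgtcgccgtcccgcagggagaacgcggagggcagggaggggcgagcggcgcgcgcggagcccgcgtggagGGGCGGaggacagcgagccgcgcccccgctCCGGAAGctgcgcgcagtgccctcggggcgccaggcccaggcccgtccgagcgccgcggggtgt
Cdk8 (GRCm38.p6 chr5:146231000-146231249, plus strand): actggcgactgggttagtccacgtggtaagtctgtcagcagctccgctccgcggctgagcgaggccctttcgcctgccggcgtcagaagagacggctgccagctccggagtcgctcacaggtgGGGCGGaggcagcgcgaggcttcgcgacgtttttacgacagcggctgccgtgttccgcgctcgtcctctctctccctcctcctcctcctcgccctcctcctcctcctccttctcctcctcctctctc
Ccng2 (GRCm38.p6 chr5:93267323-93267572, plus strand): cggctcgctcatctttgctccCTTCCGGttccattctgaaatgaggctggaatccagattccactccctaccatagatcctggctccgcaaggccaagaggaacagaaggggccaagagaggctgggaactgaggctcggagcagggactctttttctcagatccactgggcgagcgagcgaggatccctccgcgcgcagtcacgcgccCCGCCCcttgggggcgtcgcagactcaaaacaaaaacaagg
Anapc11 (GRCm38.p6 chr11:120598171-120598420, plus strand): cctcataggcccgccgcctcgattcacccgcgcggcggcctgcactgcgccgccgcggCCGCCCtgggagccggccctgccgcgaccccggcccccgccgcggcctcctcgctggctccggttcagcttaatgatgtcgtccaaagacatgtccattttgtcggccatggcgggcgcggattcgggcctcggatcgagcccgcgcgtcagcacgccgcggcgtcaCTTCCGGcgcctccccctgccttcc
The 6 promoters differ in their letters. The Ccni stretch holds an ETS match and 2 TTTGAA matches, and the Anapc10 stretch holds a YY1 match and 3 CRE matches that begin 29, 20 and 18 bases before the start. The matches at 20 and 18 bases overlap and are the opposite strands of 1 palindromic site. Cdk13, Ccng2 and Anapc11 each hold 1 GC box and 1 ETS match, and Cdk8 holds 1 GC box. None of these 250-base stretches holds a CCAAT box, but the 300-base windows of Anapc10 and Anapc11 each hold one.

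For comparison, the same 250 bases are shown for the mitotic kinase gene Cdk1 and its cyclin gene Ccnb1, which had no peak in either library; these were chosen after their values were seen.
Cdk1 (GRCm38.p6 chr10:69352913-69353162, minus strand): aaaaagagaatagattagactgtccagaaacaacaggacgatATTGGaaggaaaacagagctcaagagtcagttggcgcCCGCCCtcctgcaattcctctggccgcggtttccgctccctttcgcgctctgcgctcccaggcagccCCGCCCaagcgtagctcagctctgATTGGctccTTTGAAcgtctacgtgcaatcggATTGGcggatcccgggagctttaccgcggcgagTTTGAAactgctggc
Ccnb1 (GRCm38.p6 chr13:100786487-100786736, minus strand): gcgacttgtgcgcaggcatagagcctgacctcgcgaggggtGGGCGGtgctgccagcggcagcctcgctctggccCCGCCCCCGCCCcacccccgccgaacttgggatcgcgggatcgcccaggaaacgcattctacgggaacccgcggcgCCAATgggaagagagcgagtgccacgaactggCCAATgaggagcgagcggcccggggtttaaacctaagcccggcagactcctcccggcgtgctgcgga
The Cdk1 stretch holds 3 CCAAT boxes, 2 GC boxes and 2 TTTGAA matches, and the Ccnb1 stretch holds 2 CCAAT boxes and 3 GC boxes.

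Over the 300-base windows, with the outermost start taken for each gene, CCAAT was found in 7 of 20 members with a shared region (35%), in 8 of 29 with a replicate 2 peak only (27.6%) and in 16 of 26 with no peak (61.5%). It was found in 39.2% of the windows of all 17492 protein-coding genes with an entry, and in 34.7%, 38.04% and 40.9% of those in the same 3 classes. CCGGAAG was found in 6 of 20 members with a shared region (30%), in 9 of 29 with a replicate 2 peak only (31.03%) and in 1 of 26 with no peak (3.85%), beside 11.9% of all windows and 21.6%, 20.9% and 6.88% of those in the same classes. GGGCGG was common in all 3 classes, at 65%, 79.3% and 65.4% of members, beside 67.9%, 65.3% and 34.4% of all genes in the same classes. TTTGAA was found in 25%, 24.1% and 23.1% of members in the 3 classes, beside 10.2%, 10.6% and 19.97% of all genes in them. TGACGT was found in 20%, 20.7% and 7.69% of members, beside 14.5%, 14.3% and 5.70% of all genes in the same classes. AAGATGG was found in 15%, 6.90% and 0% of members, beside 10.8%, 6.85% and 4.91% of all genes. GCGGGAA was found in 0 of 20, 2 of 29 and 4 of 26 members, beside 9.76%, 8.71% and 4.13% of all genes in the same classes. GCATGCG was found in 0, 2 and 2 members, beside 7.18%, 8.03% and 2.84%. The share in windows of all 17492 genes was 46.3% for GGGCGG, 16.5% for TTTGAA, 8.71% for TGACGT, 6.35% for AAGATGG, 6.01% for GCGGGAA and 4.50% for GCATGCG. A match is a description of the letters and not a bound site.

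The members without a peak also had promoters rich in CpG. The ratio of observed to expected CpG had a median of 0.98 (range 0.282 to 1.22) over the 20 members with a shared region, 0.869 over the 29 with a replicate 2 peak only and 0.82 (0.195 to 1.07) over the 26 with no peak. Over all protein-coding genes of the same classes the medians were 0.847, 0.785 and 0.331. The Cdk1 window had a ratio of 0.965 and the Ccnb1 window one of 0.883. The median GC content was 61%, 59.3% and 62% in the 3 member classes, and 63%, 61.3% and 52% in the same classes of all genes.

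**Figure D5:**
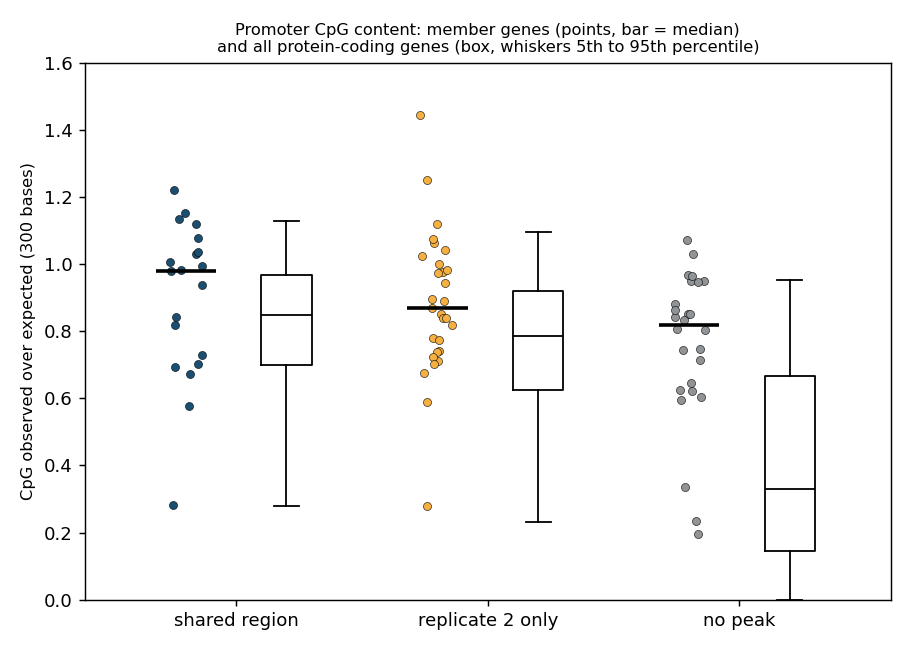
Ratio of observed to expected CpG in the 300-base RefSeq promoter window (y axis) by peak class (x axis), for member genes (points, bar at the median) and for all protein-coding genes (box with median and quartiles, whiskers from the 5th to the 95th percentile). Among genes with no peak the members have a median of 0.82 and all genes one of 0.331.

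The median gene length was 41489 bp for the 20 members with a shared region near an end, 24329 bp for the 34 with a replicate 2 peak only and 15290.5 bp for the 32 without a peak. For all protein-coding genes the medians of these classes were 23800, 24423 and 13232 bp. The part of length or base composition in the counts was not tested.

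Genes that act with the members but fall outside the symbol rule were read in the same way, from lists by role. In each of these lists the 16.0% of all protein-coding genes with a shared region near an end lies inside the exact Clopper-Pearson interval of the list's share. Of 8 CDK inhibitor genes, 1 (12.5%, 0.316 to 52.7) had such a region: Cdkn1b (p27), which holds cells out of the cycle, with folds of 6.46 and 7.41. Cdkn1a, Cdkn2c and Cdkn2d had a peak in replicate 2 only (37.5%, beside 14.8% of all genes), and the other 4 had none (50%, beside 64.2%). Of 20 genes of the retinoblastoma, E2F and DREAM network, activators included, 6 had a shared region near an end (30%, 11.9 to 54.3): the pocket protein genes Rb1 (folds 7.09 and 3.08) and Rbl1 (4.32 and 5.32), the E2F partners Tfdp1 (5.24 and 4.43) and Tfdp2 (4.198 and 4.66), E2f5 (4.17 and 3.69) and the histone chaperone gene Rbbp4 (10.8 and 8.67, with the end of Zbtb8os nearer). Of these 20 genes, 6 (Rbl2, E2f1, E2f3, E2f4, Lin9 and Foxm1) had a peak in replicate 2 only (30%, beside 14.8% of all genes). In replicate 1 only, 1 had a peak (beside 3.14%). The other 7 (E2f2, E2f7, E2f8, Lin37, Lin52, Lin54 and Mybl2) had none in either library (35%, beside 64.2%).

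Of 12 APC/C partners, 3 had a shared region (25%, 5.49 to 57.2), namely Ube2s, the enzyme that extends its ubiquitin chains (3.85 and 4.42), the checkpoint gene Bub3 (4.61 and 4.204) and the separase gene Espl1 (4.62 and 4.94, with the end of Pfdn5 109 bp from the midpoint). Fzr1, the coactivator of neurons, the APC/C inhibitor gene Fbxo5 and Mad2l1 had a peak in replicate 2 only (25%, beside 14.8% of all genes). The other 6 had none in either library (50%, beside 64.2%). Of 22 proliferation markers, 2 had a shared region (9.09%, 1.12 to 29.2, beside 16.0% of all genes): the mitotic kinase gene Aurka (4.32 and 3.59) and Rrm1, a ribonucleotide reductase subunit gene (6.03 and 4.30). A further 6 (Pcna, Mcm4, Mcm5, Mcm7, Kif11 and Kif23) had a peak in replicate 2 only (27.3%, beside 14.8% of all genes). The other 14, among them Mki67, Top2a, Plk1 and Birc5, had none (63.6%, beside 64.2% of all genes). In replicate 2, 36.4% of these markers had a peak near an end, beside 30.4% of all genes. Of 16 further cyclins and kinase regulators, 5 had a shared region (31.2%, 11.02 to 58.7). They are the elongation cyclins Ccnt1 (6.16 and 4.14) and Ccnt2 (10.6 and 7.20), Ccny (7.07 and 8.09), Cdkl3 (4.11 and 3.60) and Cks2 (8.01 and 7.70, with the end of Secisbp2 nearer).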

How the data were processed

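Peaks were called by the authors with MACS2 2.1.0 on GRCm38, one list per ChIP library, per the submitters' processing notes, which also name bcl2fastq 2.17, Trimmomatic 0.33, Bowtie2 2.3.4.1 and ChIPseeker; their settings are not given in the sources used. The deposited peak lists hold, per peak, the authors' fold enrichment ratio, a −log10 p, a −log10 q and a score that follows the −log10 q. These values are the authors' own and were used within a list. Input values were not used here. The replicate 2 list has peaks named Hyp3 under a title that says Hyp2, and was assigned by its GEO sample.

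From fold and −log10 p a whole-number summit pileup was recovered for 100% of peaks within a relative tolerance of 0.0001, a step tested on simulated data. A total of 340 gene rows that start below 3 Mb, outside chromosome Y, were left out. Shares carry exact Clopper-Pearson 95% intervals; a share of 0 has a limit of 3 counts of the total. No tests were run, as the libraries form no comparison of groups with values. All members are accounted for by name or count. The 10 best ranked and preset genes have full values, and promoters were chosen by summit position. Members and lists were chosen with earlier results of these data known. Python 3.11.15, NumPy 2.4.6 and SciPy 1.17.1 were used.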

Additional observations from a re-analysis of the deposited data

How the results depend on the processing

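The alternatives covered the counts of members near an end, in the widened body and per library, and the median folds. Of these 36 alternatives, 11 moved a count or a median beyond its tolerance and 25 did not. Those that moved are given first. With peaks of a −log10 q of at least 5, 10 members had a shared region near an end (beside 7.93% of all genes) and 10 in the widened body (beside 8.50%), and 12 had a replicate 1 peak (beside 9.76%); the median folds of the members left were 6.82 in replicate 1 and 6.07 in replicate 2, since weak peaks are removed by construction. With the top 1000 peaks of each list, 4 members had a region near an end (beside 2.81%) and 4 in the body (beside 2.97%). With a 1 kb window the median folds were 5.26 and 5.37. Leaving out replicate 1 gave 52 members near an end (beside 30.4% of all genes) and 55 in the body (beside 32.6%). These are the counts of replicate 2 alone. The alternatives that follow stayed within the tolerance. Leaving out replicate 2 gave 21 members near an end (beside 19.4%) and 22 in the body (beside 20.9%). Of the 88 members, 14 had a region near an end with nearest ends (15.9%, beside 12.7% of all genes) and 16 with a 1 kb window (18.2%, beside 13.9%). Summits within 250 bp gave 17 (19.3%, beside 13.4%) and overlap of 50% gave 19 (21.6%, beside 15.4%). A 5 kb window gave 22 (25%, beside 17.2%). The core roles gave 15 of 64 genes (23.4%, beside 16.0%). Promoter starts (17 of 76, beside 15.4%), chromosome X left out (20 of 86, beside 16.7%) and Cdk9 added (21 of 89, beside 16.0%) were chosen after seeing the data. No paired analysis was possible because the input libraries have no values here.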
